A study of Mus musculus with 4 samples.

Results

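Transcripts of 9 complement genes were followed in tumor-associated macrophages (TAMs) of B16 melanoma, in mice of 2 genotype labels. The genes are C1qa, C1qb, C1qc, C4b, C3, Cfb, Cfp, Serping1 and Cd55, taken as a list of symbols and matched by Entrez identifier, and all 9 had reads in every library, among 16739 genes detected in at least 1 library. B16-F10 is a melanoma line of C57BL/6 mice, and its cells were placed under the abdominal skin of C57BL/6 mice aged 6 to 8 weeks. TAMs were sorted 16 days later as CD45+ CD11b+ F4/80+ cells. The WT group held 2 libraries of wild type mice. The other group held 2 libraries of mice labelled Trim24-/-, in which floxed Trim24 was deleted by LysM-Cre, a recombinase made in myeloid cells, macrophages and others alike. The study states that its WT controls were littermates, and the labels do not say whether they carried floxed or Cre alleles. Each group had its own 2 libraries, and the labels do not say whether a library came from 1 mouse or from pooled mice.

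Complement is a cascade of plasma proteins that marks targets for uptake and calls in leukocytes. C1q, a hexamer of 3 kinds of chain, starts the classical pathway by binding antibody or dying cells, C4b and C3 are the components that become covalently attached to the target surface, and factor B (Cfb) and properdin (Cfp) build and stabilise the convertase of the alternative pathway. The C1 inhibitor (Serping1) blocks the first proteases in plasma, and Cd55 speeds the decay of convertases on the cell's own membrane. Hepatocytes make most plasma complement, but tissue macrophages are a main source of C1q and also make properdin and other components.

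The libraries held 4476122 to 5172407 expected counts, so that 3 counts, the level taken as the floor, equalled 0.606 to 0.639 CPM (counts scaled to a common total by edgeR's TMM sizes). Trim24 itself was at 5.82 and 2.12 CPM in WT, against 3.43 and 0.411 CPM in the mutant-labelled libraries. The groups overlapped for the targeted gene, and the mutant libraries are therefore named by their label throughout. Xist was at 10.9 and 6.51 CPM in WT against 437 and 256 CPM, and the Y-linked Ddx3y at 73.6 and 102 CPM against 0.426 and 0.411 CPM. The study describes the WT and mutant mice of its tumor models as matched for age and sex, whereas these levels split by label. Genotype label and sex-linked expression therefore cannot be told apart in any comparison below. All 8 macrophage markers (among them Adgre1, Csf1r, Cd68 and Mertk) were expressed in all 4 libraries, with summed levels of 6042 and 5910 CPM in WT against 7106 and 7131 CPM. All 8 had a log2 fold change above 0 and 5 lay above WT without overlap, where 21.5% of all genes did, and 0 were called by edgeR. Melanocyte transcripts were present too, at summed levels of 585 to 789 CPM over 6 markers. In bulk RNA, a change in the number of cells of a type and a change in the RNA per cell cannot be told apart.

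Levels of the 9 genes ran from 0.33 to 5814 FPKM (fragments scaled to transcript length and library total). The group means of the C1q chains lay between 3055 and 5405, Cfp followed at 450 ± 17.4 (SD, n = 2) in WT and 641 ± 91.9 in the libraries labelled Trim24-deficient, and Cfb came next at 146 ± 31.1 and 334 ± 35.0. C4b (13.3 ± 2.35 and 22.8 ± 3.90 FPKM) and C3 (9.46 ± 0.0283 and 24.2 ± 9.83 FPKM) were neighbors, with C4b the higher in both WT libraries and overlapping values of both genes in the other group. Serping1 and Cd55 were at 1.0 FPKM or less in every library. Serping1 had the higher FPKM in each, with overlap in WT (0.34 and 0.73 against 0.33 and 0.44). In the other group it was at 1.0 and 0.74 against 0.40 and 0.68. These values rest on 3 to 9 counts of each gene per library. The order from C1q through Cfp and Cfb to C4b and C3 was the same in each of the 4 libraries.

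**Figure D1:**
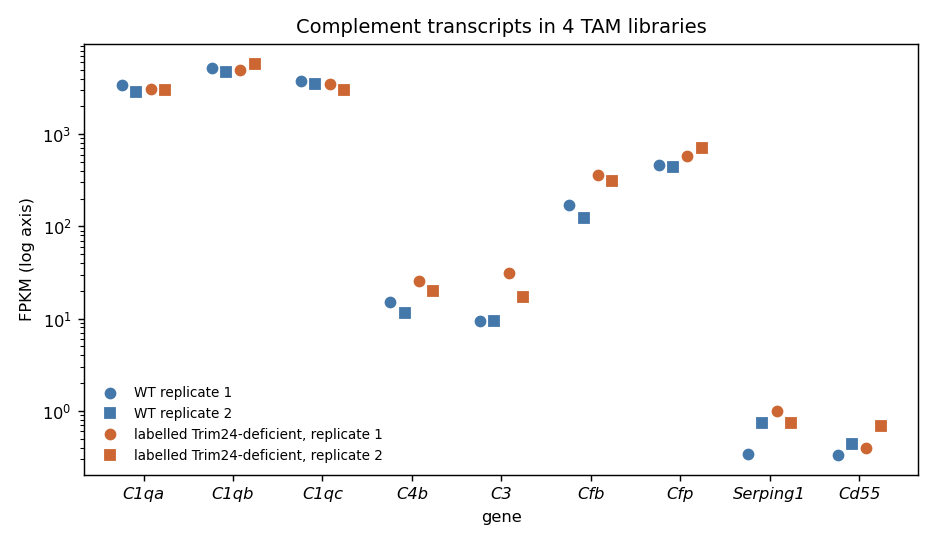
FPKM (log axis) of the 9 complement genes, with 1 point for each library, WT in blue and labelled Trim24-deficient in orange, circles for replicate 1 and squares for replicate 2. The C1q chains sit at 2827 FPKM or more in all libraries, Serping1 and Cd55 at or below 1.0, and the orange points of C4b, C3, Cfb and Cfp lie above the blue ones.

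The question put to the profile was which complement transcripts differed between TAMs of the 2 labels. The C1q chains showed little difference, whereas C3, Cfb, C4b and Cfp were 2.82, 2.52, 1.90 and 1.58 times the WT level in the fit. None of these differences passed the thresholds, which were a fold above 1.5 with an adjusted p under 0.05. Of the 9 genes, 7 passed the filter on low counts, and 0 of 7 were called by edgeR's quasi-likelihood test, against 0.372% of the 11302 genes tested in either direction and 0.292% called with the higher level in the mutant-labelled libraries. At an unadjusted p under 0.05 there were 4 of 7, all with the higher level in the libraries labelled Trim24-deficient, against 6.58% of all genes with that direction. Both libraries labelled Trim24-deficient lay above both WT libraries in CPM for 5 of 7 genes (21.5% of all genes) and below them for 0 of 7 (23.0% of all genes). The median log2 fold change was 0.66 over the 7 genes and -0.01 over all genes tested. DESeq2 called 3 of the genes (165 of 16739 over all genes), and limma on log2(FPKM + 1) called 0 (24 of 11093 over all genes). With 2 libraries against 2, the exact permutation test cannot give a two-sided p below 0.333, and each gene whose groups did not overlap had that value.

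**Figure D2:**
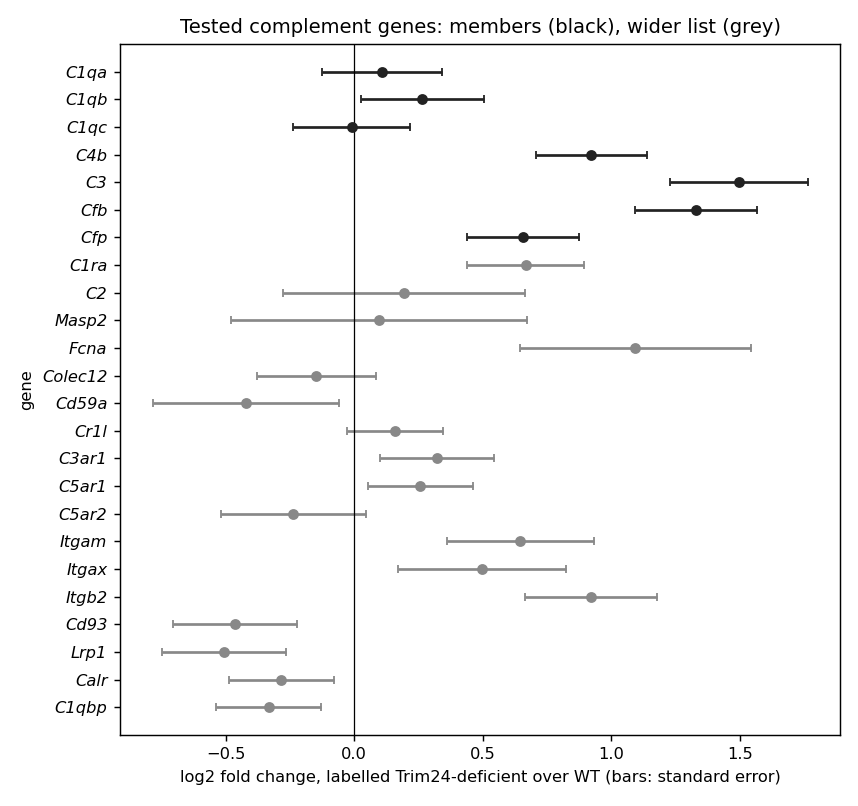
Log2 fold change of the libraries labelled Trim24-deficient over WT (horizontal axis, bars are standard errors of the edgeR fit) for the 7 tested members in black and the tested genes of the wider complement list that are reported here in grey. C3 and Cfb lie farthest to the right at 1.5 and 1.33, and the C1q chains lie within 0.27 of 0.

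The C1q chains are encoded side by side on the minus strand of chromosome 4 (GRCm38), C1qb from 136880126 to 136886200, C1qc from 136889801 to 136892936 and C1qa from 136895916 to 136898844, within 18719 bases. Each has 3 exons in its longest basic GENCODE transcript. They were among the most abundant transcripts of the TAMs, ranking from 7 to 10 (C1qb), 11 to 17 (C1qc) and 13 to 16 (C1qa) by FPKM, and together they took 1.16% to 1.31% of all counts of a library. C1qa, the A chain, was at 3581 CPM in WT replicate 1, 2814 CPM in WT replicate 2, and 3467 and 3419 CPM in replicates 1 and 2 labelled Trim24-deficient, the order used for every gene below. The mutant values lay inside the WT range, and the log2 fold change was 0.11 (SE, the standard error, 0.23, edgeR adjusted p = 0.892). C1qb, the B chain, was at 5368 and 4580 CPM in WT and at 5481 and 6476 CPM in those labelled Trim24-deficient. The lowest mutant value exceeded the highest WT value by a ratio of 1.02, less than the ratio of 1.17 between the WT libraries, and the log2 fold change was 0.27 (SE 0.24, edgeR adjusted p = 0.694). In FPKM the groups overlapped for C1qb, at 5266 and 4691 against 4995 and 5814. C1qc, the C chain, was at 3810 and 3428 CPM in WT and at 3837 and 3348 CPM in those labelled Trim24-deficient, with a fitted log2 fold change of -0.01 (SE 0.23, edgeR adjusted p = 0.989). A range of 1 standard error on either side of the fold spanned 0.92 to 1.27 for C1qa, 1.02 to 1.42 for C1qb and 0.85 to 1.16 for C1qc. The sign for C1qa depended on scaling, since library totals without TMM gave -0.04, a setting that moved the median of all genes to -0.15.

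The assembled C1q molecule holds equal numbers of its 3 chains, so their transcripts were also compared within each library, where scaling between libraries plays no part. C1qb stood at 1.53 and 1.66 times the FPKM of C1qa in WT and at 1.61 and 1.93 times in the libraries labelled Trim24-deficient. C1qc stood at 1.08 and 1.24 times C1qa in WT and at 1.13 and 0.997 times in the other group. The B chain transcript was thus the most abundant in all 4 libraries, and neither ratio separated the groups (exact two-sided permutation test, p = 0.667 for both, n = 2 per group).

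Promoters from RefSeq (GRCm38.p6) could be matched for 5 of the 9 genes, C1qb, C1qc, C3, Cfp and Cd55, and not for C1qa, C4b, Cfb and Serping1. The 250 bases before the start of C1qb and C1qc are shown as the promoters of the most abundant members, in lower case with capitals for GAGGAA, the core letters bound by the myeloid factor PU.1, searched on both strands. These letters occur in 23.3% of all 32851 promoter windows of the same length. The C1qb window (chr4:136886201-136886450, minus strand) holds 1 match, 30 to 25 bases before the start. The C1qc window (chr4:136892915-136893164, minus strand) holds 1 match on the opposite strand, 193 to 188 bases before the start. This window reaches into the C1qc span given above, so the start used for it lies inside that span. Bases just after each start were found in a GENCODE transcript of the same gene.
C1qb: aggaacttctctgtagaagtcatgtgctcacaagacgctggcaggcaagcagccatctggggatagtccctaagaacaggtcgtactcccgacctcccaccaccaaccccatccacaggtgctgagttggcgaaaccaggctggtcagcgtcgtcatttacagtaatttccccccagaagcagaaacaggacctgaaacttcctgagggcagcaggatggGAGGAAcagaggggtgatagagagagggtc
C1qc: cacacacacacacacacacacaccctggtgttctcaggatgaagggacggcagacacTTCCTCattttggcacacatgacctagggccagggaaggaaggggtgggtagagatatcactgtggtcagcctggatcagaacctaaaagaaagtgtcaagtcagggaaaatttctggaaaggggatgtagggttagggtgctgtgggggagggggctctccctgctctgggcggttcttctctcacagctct

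C3 is the component on which all pathways converge, and lies on chromosome 17 from 57203967 to 57228136 (minus strand, 41 exons). It was at 47.9 and 46.0 CPM in WT, a ratio of 1.04 between the libraries, and at 170 and 95.3 CPM in those labelled Trim24-deficient. Both mutant values lay above both WT values, by 1.99 to 3.69 times over the 4 pairs of libraries, and the mutant libraries differed from each other by 1.78 times. The log2 fold change was 1.5 (SE 0.27, edgeR adjusted p = 0.0625), short of the threshold. C4b, the classical and lectin pathway component related to C3, lies on the same chromosome from 34728139 to 34743902 on the minus strand, and also has 41 exons. It was at 80.0 and 59.6 CPM in WT and at 147 and 117 CPM in those labelled Trim24-deficient, again without overlap. The lowest of the 4 pairwise ratios was 1.47, above the ratio of 1.34 between the WT libraries, and the log2 fold change was 0.92 (SE 0.22, edgeR adjusted p = 0.141). C4a, a near-identical copy that could share reads with C4b, had an expected count of 1.68 in WT replicate 1 and 0 elsewhere, against 286 to 692 for C4b. Reads of the copies may not be told apart in the authors' counting, and the C4b level is uncertain to that extent.

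Cfb supplies the protease of the alternative pathway convertase and is encoded in the MHC class III region of chromosome 17, from 34856374 to 34862514 (minus strand, 18 exons), within 134376 bases of the far end of C4b. It was at 457 and 324 CPM in WT and at 1047 and 916 CPM in those labelled Trim24-deficient. The mutant values were 2.01 to 3.24 times the WT values, whereas libraries of the same label differed by 1.41 times in WT and 1.14 times in the other group. The log2 fold change was 1.33 (SE 0.24, edgeR adjusted p = 0.0625), also short of the threshold. Cfp, properdin, which binds the alternative pathway convertase and prolongs its life, lies on chromosome X from 20925454 to 20931555 (minus strand, 9 exons). It was at 735 and 667 CPM in WT and at 986 and 1226 CPM in those labelled Trim24-deficient, without overlap. The log2 fold change was 0.66 (SE 0.22, edgeR adjusted p = 0.266). Cfp is the only X-linked gene of the list, and Xist ran along the same split of the libraries.

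C3, Cfb, C4b and Cfp kept the same direction in all 14 alternative settings, but their calls did not stay on one side of the thresholds. C3 and Cfb were called without the filter on low counts (edgeR adjusted p = 0.0362 and 0.0368), and C3, Cfb and C4b by DESeq2 (adjusted p = 0.000179, 5.15e-06 and 0.0368), whereas limma on log2(FPKM + 1) gave adjusted p-values of 0.292, 0.199 and 0.320. Without the library labelled Trim24-deficient replicate 1 the log2 fold changes of C3, Cfb and C4b were 1.03, 1.24 and 0.75. They were 1.86, 1.43 and 1.08 without replicate 2 of that label. Without WT replicate 1 they were 1.54, 1.62 and 1.17, and without WT replicate 2 they were 1.47, 1.10 and 0.73. In these fits the lone library of a label was assumed to vary like those of the other label, so their calls are not weighed.

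**Figure D3:**
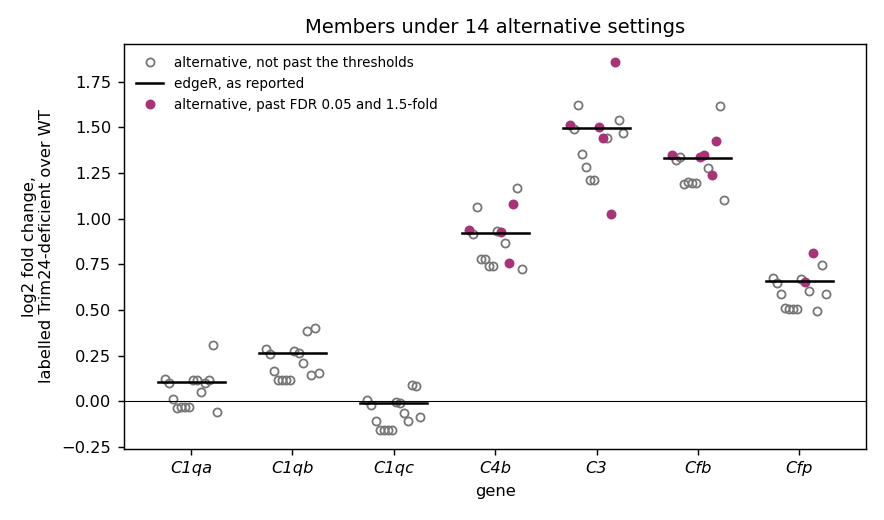
Log2 fold change (vertical axis) of the 7 tested members under 14 alternative settings (circles, filled where past a false discovery rate of 0.05 and a fold of 1.5) and as reported (black bar). C4b, C3, Cfb and Cfp stay above 0 throughout, with 4, 5, 5 and 2 filled circles, and C1qa and C1qc have circles on both sides of 0. The filled circles include fits that left a lone library in the mutant-labelled group.

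The differences in C3, C4b, Cfb and Cfp were also expressed per 1000 FPKM of summed C1q in the same library. This removes the scaling between libraries, but not a trend of fold change with gene length. On this scale Cfb was at 13.5 and 11.3 in WT and at 30.9 and 26.1 in those labelled Trim24-deficient. C3 was at 0.758 and 0.860 in WT and at 2.68 and 1.45 in the other group. C4b was at 1.20 and 1.05 against 2.21 and 1.70, and Cfp at 37.2 and 39.7 against 49.7 and 59.7. For each of the 4 genes the groups did not overlap on this scale (exact two-sided permutation test, p = 0.333, the smallest that n = 2 per group allows). Mean summed C1q was 11736 FPKM in WT and 11709 FPKM in the other group. The 4 genes were taken up because their groups already did not overlap. This scale therefore largely repeats that comparison and is no separate support for it. Gene length and log2 fold change had a Spearman rho of -0.249 across all genes tested. With that trend removed, the edgeR log2 fold changes were 1.62 for C3, 1.06 for C4b, 1.34 for Cfb and 0.59 for Cfp. The genes were also set against each other. C3 stood at 0.632 and 0.817 times the FPKM of C4b in WT and at 1.22 and 0.858 times in the libraries labelled Trim24-deficient, and Cfp at 2.75 and 3.52 times Cfb in WT and at 1.61 and 2.28 times in the other group, with the same smallest p of the exact test. The gap between the groups in the ratio of C3 to C4b, 0.817 to 0.858, was smaller than the spread within either group. The ratio of Cfb to C3 overlapped, at 17.8 and 13.1 in WT and 11.5 and 18.0 in those labelled Trim24-deficient.

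**Figure D4:**
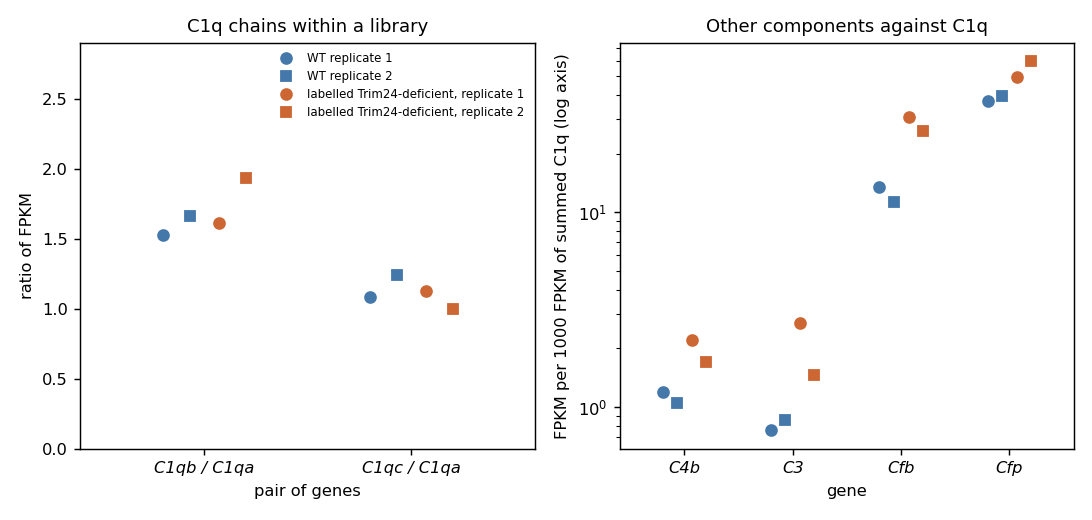
Ratios within each library, WT in blue and labelled Trim24-deficient in orange. Left, FPKM of C1qb and C1qc over C1qa, where the groups overlap between 0.997 and 1.93. Right, FPKM of C4b, C3, Cfb and Cfp per 1000 FPKM of summed C1q (log axis), where all orange points lie above the blue points of the same gene.

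The promoters of C3 and Cfp are shown because their groups did not overlap and a window was matched, as it was not for C4b and Cfb. Each window was searched on both strands for a STAT6-type site (TTCNNNNGAA, in 5.85% of all windows), an interferon-stimulated response element (GAAANNGAAA, 2.98%), an NF-kappaB-type site (GGGANNTTCC, 1.21%) and the GAGGAA core, with free bases written as N. None of these letters occurred in the C3 window (chr17:57228137-57228386, minus strand) or in the Cfp window (chrX:20931556-20931805, minus strand), which therefore carry no capitals. In the C1qb and C1qc windows shown above only the GAGGAA core occurred, and in the Cd55 window none of them did. The Cd55 window (chr1:130462745-130462994, minus strand) lies inside the gene span, which ends at 130465009.
C3: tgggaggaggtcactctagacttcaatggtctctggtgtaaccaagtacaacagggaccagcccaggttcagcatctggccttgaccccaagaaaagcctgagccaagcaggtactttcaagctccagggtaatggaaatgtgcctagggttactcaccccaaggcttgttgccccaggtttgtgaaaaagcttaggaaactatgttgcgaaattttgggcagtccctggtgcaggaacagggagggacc
Cfp: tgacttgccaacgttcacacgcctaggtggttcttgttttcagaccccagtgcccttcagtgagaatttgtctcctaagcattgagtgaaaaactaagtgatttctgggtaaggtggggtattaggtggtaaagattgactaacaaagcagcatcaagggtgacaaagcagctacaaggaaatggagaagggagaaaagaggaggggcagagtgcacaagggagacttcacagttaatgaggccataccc

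The 2 regulators on the list were close to the floor of detection. Serping1 (chromosome 2, 84765360 to 84775444, minus strand) had 3 and 6 counts in WT and 9 and 7 counts in the libraries labelled Trim24-deficient. Summed over the group this gave 0.920 CPM in WT (95% exact Poisson interval 0.421 to 1.75) and 1.67 CPM in the other group (0.954 to 2.71), and the intervals overlapped. Cd55 (chromosome 1, 130429798 to 130465009, minus strand) had 4 and 5 counts in WT and 5 and 9 counts in the libraries labelled Trim24-deficient, with 0.920 CPM (0.421 to 1.75) and 1.46 CPM (0.799 to 2.45). These intervals cover counting error only. Both genes fell below the filter on low counts, and a difference was not detectable at this depth. Without the filter, edgeR gave log2 fold changes of 0.85 and 0.66 (adjusted p = 0.795 for both). The near-identical copy Cd55b and the overlapping transcript Cd55os had no reads listed. Reads of the copies Cd55 and Cd55b may not be told apart in the authors' counting. Since strand-specific counting is not stated, reads of Cd55os and Cd55 cannot be told apart either.

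The wider complement system was described by a list of 49 further genes, of which 34 had reads in at least 1 library and 18 passed the filter. None of the 18 was called by edgeR, 5 had an unadjusted p under 0.05 with the higher level in the libraries labelled Trim24-deficient (6.58% of all genes) and 0 with the lower level (5.62% of all genes). The median log2 fold change was 0.18, against -0.01 over all genes, and of the 18 genes 7 lay above WT without overlap (21.5% of all genes) and 4 below (23.0% of all genes). DESeq2 called 1 of the 18, Itgb2 (165 of 16739 over all genes), and limma on log2(FPKM + 1) called 0 (24 of 11093 over all genes). Among proteases, C1ra, which cleaves C1s within the C1 complex, was at 48.7 and 34.2 CPM in WT and at 71.8 and 59.8 CPM in those labelled Trim24-deficient (log2 fold change 0.67, SE 0.23, edgeR adjusted p = 0.280). Its near-identical copy C1rb had no reads listed, so its level is uncertain in the same way as that of C4b. Its partner C1s1 had counts of 0 and 0 against 3 and 4, at the floor. C2, the protease of the classical convertase, was at 3.63 and 3.13 CPM against 3.83 and 3.90 CPM, and its log2 fold change of 0.19 was smaller than its standard error of 0.47.

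Among membrane regulators Cr1l, the mouse protein Crry that limits C3 and C4 activation, was at 94.7 and 84.8 CPM in WT and at 108 and 92.3 CPM in those labelled Trim24-deficient, and thus far above Cd55 (51.9 to 61.7 FPKM for Cr1l, 0.33 to 0.68 FPKM for Cd55). Its groups overlapped, with a log2 fold change of 0.16 (SE 0.19, edgeR adjusted p = 0.782). Cd59a, which blocks the membrane attack complex, was at 19.1 and 17.1 CPM in WT and at 8.54 and 18.4 CPM in the other group (log2 fold change -0.42, SE 0.36, edgeR adjusted p = 0.673), and the authors' counting split reads between it and its copy Cd59b.

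Of the 10 tested receptors, both mutant-labelled values lay above both WT values for 4 (C3ar1, C5ar1, Itgam and Itgb2, against 21.5% of all genes) and below them for 4 (Cd93, Lrp1, Calr and C1qbp, against 23.0% of all genes), and none was called by edgeR. C3ar1, the receptor of C3a, was at 1038 and 1295 CPM in WT and at 1416 and 1499 CPM in those labelled Trim24-deficient (log2 fold change 0.32, SE 0.22, edgeR adjusted p = 0.586). C5ar1, the receptor of C5a, was at 836 and 912 CPM against 1028 and 1062 CPM (log2 fold change 0.26, SE 0.21, edgeR adjusted p = 0.645). The second C5a receptor, C5ar2, was at 22.3 and 38.9 CPM against 24.3 and 27.8 CPM, inside the WT range. Itgam and Itgb2, the chains of complement receptor 3, had log2 fold changes of 0.65 and 0.92 (edgeR adjusted p = 0.408 and 0.203), and Itgam encodes CD11b, on which the cells were sorted. Itgb2 was at 538 and 374 CPM in WT and at 995 and 730 CPM in those labelled Trim24-deficient, and DESeq2 gave an adjusted p of 0.0202 for it. Itgax, the alpha chain of complement receptor 4, was at 23.3 and 17.5 CPM against 38.3 and 19.5 CPM, with overlap. Proteins known for binding C1q or cells coated with it had fold changes of the other sign, with Cd93 at -0.46, Lrp1 at -0.51, Calr at -0.28 and C1qbp at -0.33 (edgeR adjusted p = 0.470, 0.430, 0.611 and 0.545). Some of these sizes depended on single WT libraries and on gene length. Without WT replicate 2, Cd93 was at -0.12 and Lrp1 at -0.20, and without WT replicate 1 C1qbp was at -0.13. With the length trend removed Cd93 was at -0.24 and Lrp1 at -0.14, but C1qbp at -0.43. Calr changed little, at -0.29 without WT replicate 1, -0.26 without WT replicate 2 and -0.33 with the length trend removed. Vsig4, a C3b receptor of resident macrophages, had 1 count in each of 2 libraries and 0 in the others.

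Markers of some other cells differed between the same pairs of libraries as C3, C4b, Cfb and Cfp. The 5 monocyte markers (among them Ly6c2 and Ccr2) summed to 519 and 644 CPM in WT and to 1648 and 1041 CPM in those labelled Trim24-deficient, 4 of 5 lay above WT without overlap (21.5% of all genes), and 1 of 5 was called by edgeR (0.372% of all genes). The 7 neutrophil markers summed to 90.2 and 109 CPM in WT and to 101 and 253 CPM in the other group, a sum that held 42.9 to 83.9 CPM of Cxcr2, whose groups overlapped. S100a8 was at 17.4 and 15.6 CPM in WT but at 35.1 and 118 CPM in the other group, and S100a9 at 6.66 and 9.38 CPM but at 19.2 and 44.8 CPM, both without overlap (edgeR adjusted p = 0.107 and 0.0977). They were 2 of the 3 neutrophil markers past the filter on low counts, where 21.5% of all genes lay above WT without overlap. Ly6g was at 0 in both of WT but at 2.0 and 0.918 CPM in the mutant-labelled libraries. Camp and Ngp were each at 0 in 1 library of each group. Retnlg was at 1.82 and 0 CPM in WT against 1.92 and 11.3 CPM. The 4 endothelial markers summed to 19.2 and 17.7 CPM against 42.0 and 27.1 CPM, of which Pecam1, a gene that leukocytes also express, made up 16.0 and 5.63 CPM against 36.0 and 22.0 CPM. The other 3 (Kdr, Cdh5 and Emcn) overlapped between the groups, with Emcn at 0 in 3 libraries. Of the 6 melanoma markers 5 had a log2 fold change below 0 and 3 (Dct, Mlana and Tyrp1) lay below WT without overlap (23.0% of all genes). Their median log2 fold change was -0.42, with Tyrp1 at 146 and 128 CPM against 70.1 and 104 CPM. Tyr, the most abundant of the 6, had a log2 fold change of 0.06, at 411 and 424 CPM against 375 and 496 CPM. The summed levels of the 6 overlapped, at 783 and 740 CPM in WT against 585 and 789 CPM. The part of these cells in the complement values was not tested. Fibroblasts are a known source of C3 and Serping1, and their 6 markers summed to 2.83 to 5.96 CPM in all libraries, with no Lum reads listed. The 3 B cell markers summed to 1.03 to 3.13 CPM. The 5 T and NK cell markers, with no Trac reads listed, summed to 23.7 and 14.4 CPM in WT and 53.0 and 13.8 CPM in those labelled Trim24-deficient. Dendritic cell markers summed to 48.0 and 44.1 CPM against 78.4 and 36.3 CPM over 6 genes, which went in different directions. Of the 5 tested, 2 (Flt3 and Cd209a) lay below WT without overlap (23.0% of all genes) and 0 above (21.5% of all genes). Flt3 was at 3.84 and 5.42 CPM against 1.28 and 0.205 CPM. Xcr1 and Clec9a were highest in replicate 1 labelled Trim24-deficient, at 46.5 and 14.5 CPM, and overlapped between the groups.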

How the data were processed

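TAM RNA of 2 WT and 2 mutant-labelled libraries was analysed, grouped by sample title. Per the labels, Bowtie and RSEM were used with GRCm38/mm10. The authors deposited an estimated count (expected count) per Entrez gene, not normalized, beside FPKM values scaled to gene length and library total. Versions are not given in the sources used here. Genes unlisted in a library were taken as 0. Counts were rounded and tested with edgeR 4.0.16 in R 4.3.3 (filterByExpr, TMM, quasi-likelihood fit without block, Benjamini-Hochberg over 11302 genes), called at a fold above 1.5 and FDR below 0.05, the thresholds of the study. Standard errors are the log2 fold change over the square root of F. CPM uses TMM-scaled sizes. Alternatives were DESeq2 1.42.0, limma 3.58.1 after adding a pseudocount of 1 or 0.1 to FPKM (genes reaching FPKM 1 in 2 libraries, or all genes), other scalings and filters, a length offset, a replicate block and single libraries left out. Symbols, positions and promoters are from RefSeq GRCm38.p6 (16698 of 16739 identifiers matched), exons and strands from GENCODE M21. The fits were tested on simulated data. Values of some listed genes and the search for 1 motif are not reported here. The member list, the other gene lists and the motifs were chosen with earlier results of these data known. All members are named, and other complement genes past the filter were named by role, receptors and regulators from a mean log2 CPM of 3. C1ra, C2, the lectin and terminal pathway genes, all other complement genes below the filter and the marker genes given with values lie outside this rule and were named after their values were seen. P-values set differences against the spread between libraries, whose separate origin the labels do not state. In the edgeR fit as reported, most of the weight lay on spread shared across genes (at least 7.41 prior degrees of freedom). A gene's own libraries gave 2 residual degrees of freedom.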

Additional observations from a re-analysis of the deposited data

How the results depend on the processing

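Each value rests on 2 libraries per label. Among the 9 genes, 0 were called as reported, 4 (C4b, C3, Cfb and Cfp) with the replicate block, 3 with DESeq2 and 2 without the filter on low counts, and 0 to 4 with each library left out, namely 4 without Trim24-deficient replicate 1 and 3 without replicate 2. The other alternatives called 0. Of the wider list, 0 were called as reported, 5 with the replicate block, 1 with DESeq2, and 0 to 4 with each library left out. Over all genes, 42 were called as reported, 634 with the replicate block, 165 with DESeq2, 24 with limma on log2(FPKM + 1), 0 with limma without filter, and 25 to 652 with each library left out. Of these calls, 78.6% had the higher level in the mutant-labelled libraries, against 45.8% with limma on log2(FPKM + 1) and 35.5% on log2(FPKM + 0.1). C1qa changed sign to -0.038 with library totals, to -0.031 in the 3 limma fits and to -0.057 without WT replicate 2 (range -0.057 to 0.31 over libraries left out). C1qc changed sign to 0.0068 with DESeq2 and ranged from -0.11 to 0.086 over libraries left out. The cause was not tested. The replicate numbers of the labels are not stated to pair animals, and same-numbered libraries deviated together with a correlation of 0.165 across genes, so the block is an alternative only. In the block fit edgeR also gave no weight to each gene's own spread and used the spread shared across genes.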

Other observations

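Transcripts of the lectin and terminal pathways were mostly at the floor in these TAMs. Of the 7 terminal pathway genes none passed the filter on low counts. C6, which joins the membrane attack complex, had counts of 0 and 1 in WT replicates 1 and 2 and of 13 and 8 in those labelled Trim24-deficient, and C8g had 5 and 8 counts in WT and 8 and 12 in the other group. Hc, the mouse C5 gene, had 3 counts in 1 library and 0 in the others. Of the 9 lectin pathway genes 3 passed the filter. Fcna, a ficolin that binds sugars on microbes and is made by macrophages, was at 14.9 and 13.1 CPM in WT and at 14.5 and 45.4 CPM in those labelled Trim24-deficient, so that its log2 fold change of 1.09 (SE 0.45, edgeR adjusted p = 0.372) rested on 1 library. Colec12, a scavenger receptor collectin, was at 41.2 and 61.7 CPM in WT and at 45.9 and 47.0 CPM in the other group. Factor D (Cfd), the protease that activates factor B, had no reads listed in any library, and neither did Mbl1 and Mbl2, the mannose-binding lectins.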
